A study of Mus musculus with 6 samples.

Results

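The genes described here mark striatal projection neurons, the medium spiny neurons that make up most of the striatum. They were chosen by name and are *Adora2a*, *Gpr6*, *Gnal*, *Rgs9*, *Adcy5*, *Pde10a*, *Ppp1r1b*, *Rasd2* and *Rarb*, 9 of the 38355 genes counted. All 9 were matched by symbol and passed the filter on low counts, as 17120 genes did. RNA sequencing of polyadenylated RNA compared cortical hemispheres of C57BL/6 mice aged 6 months (3 samples) and 16 months (3 samples), and the labels name no transgene or treatment at either age apart from the chloral hydrate used to anaesthetise the mice. Samples are separate brains by the methods. A protocol label has 3 months for the younger age, where all other labels have 6 months. The members were compared between the ages as a gauge of how much striatal tissue the cortical dissections held.

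Striatal projection neurons receive dopamine and cortical glutamate, and signal through a cAMP cascade whose parts most of these genes encode. In this cascade a stimulatory G protein passes signals of dopamine and adenosine receptors to adenylyl cyclase, a phosphodiesterase breaks the cAMP down, and protein kinase A acts on the phosphatase inhibitor DARPP-32. Neurons of the indirect pathway carry dopamine D2 and adenosine A2a receptors and make enkephalin, and those of the direct pathway carry dopamine D1 receptors and make substance P and dynorphin. The striatum lies beneath the cortex, and several of these genes are also transcribed in cortical neurons. In such bulk tissue, fewer cells of a type and less RNA per cell cannot be told apart, nor can striatal tissue and transcription in cortical neurons.

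Total counts on genes ranged from 29797253 to 46519280 per sample. *Slc17a7*, the vesicular glutamate transporter of cortical excitatory neurons, was among 10 markers of the labelled tissue. It stood at 192 FPKM (counts scaled to library size and divided by the exon length in kilobases), above every member. The other markers of this list are given below only in its sum. Across all tested genes, deviations of a sample from the mean of its age followed the GC content of the transcript in 2 samples, with r = 0.588 in replicate 1 and −0.582 in replicate 2 of 16 months. In the other 4 samples r lay between −0.130 and 0.160. Genes are not independent replicates, and these values are descriptions. Values of the members that rest on these 2 samples are therefore given with and without them.

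Promoter sequence upstream of the annotated start was read from RefSeq (build GRCm38.p6) for 6 of the 9 members, with 7 start sites. It was searched on both strands for the cAMP response element TGACGTCA, which reads the same on either strand, and for the letters GTTCA repeated after any 6 bases, a form of the element bound by retinoic acid receptors. The motifs were picked after the sequences had been seen. Each sequence covers the 250 bases before a start site, is written 5′ to 3′ along the strand of the gene, and has a motif match in capitals. *Pde10a* is shown because it was the member that passed the test between the ages, *Gpr6* because its window holds the cAMP response element, and *Rarb* because its window holds the retinoic acid repeat. The window shown for *Pde10a*, its further window and the window of *Rarb* lie inside the gene spans given below. They precede start sites within these genes, not the outermost start of the span.
Pde10a, chr17:8801495-8801744, plus strand: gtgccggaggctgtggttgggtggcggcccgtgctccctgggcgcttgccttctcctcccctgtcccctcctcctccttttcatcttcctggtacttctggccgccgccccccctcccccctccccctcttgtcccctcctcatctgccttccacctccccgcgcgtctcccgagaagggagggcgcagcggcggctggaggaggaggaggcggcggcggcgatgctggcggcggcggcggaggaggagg
Gpr6, chr10:41072291-41072540, minus strand: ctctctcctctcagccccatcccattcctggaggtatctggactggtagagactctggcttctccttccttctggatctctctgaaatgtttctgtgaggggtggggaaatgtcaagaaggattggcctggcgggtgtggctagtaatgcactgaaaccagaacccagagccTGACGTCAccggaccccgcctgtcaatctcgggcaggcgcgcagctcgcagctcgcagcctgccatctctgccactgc
Rarb, chr14:16575477-16575726, minus strand: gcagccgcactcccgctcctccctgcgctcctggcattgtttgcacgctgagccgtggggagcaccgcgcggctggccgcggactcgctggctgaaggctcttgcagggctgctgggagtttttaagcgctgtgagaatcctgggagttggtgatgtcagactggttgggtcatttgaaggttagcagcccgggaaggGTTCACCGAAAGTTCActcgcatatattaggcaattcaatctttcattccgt

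In *Gpr6* the cAMP response element began 78 bases before the start site, and these letters were found in 1.55% of the 32851 windows of the same length in the table. In *Rarb* the repeat began 52 bases before the start site, and 0.067% of all windows held it. No match to either motif was found in the windows of *Pde10a*, *Rgs9*, *Adcy5* or *Rasd2*. A match describes the letters of the window and shows no binding.

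Levels of different genes were compared per length, as FPKM, and levels of a gene between samples as CPM, its counts scaled to a library of 1000000 counts. *Ppp1r1b*, which encodes DARPP-32, had the highest level of the members, with a mean of 63.7 FPKM over the 6 samples and a range from 60.0 to 71.8. It was followed by the small GTPase gene *Rasd2* with 34.0 FPKM and the adenylyl cyclase gene *Adcy5* with 32.7 FPKM, whose ranges overlapped. The next pair, *Gnal* with 20.5 FPKM and *Pde10a* with 19.8 FPKM, overlapped as well. All 4 of these encode parts of the signalling chain inside the cell. The G protein regulator gene *Rgs9* had 11.2 FPKM and the adenosine receptor gene *Adora2a* 8.27 FPKM. The lowest levels were those of the orphan receptor gene *Gpr6* with 3.99 FPKM and of *Rarb* with 3.19 FPKM. Apart from the 2 overlapping pairs, neighbours in this order did not overlap in any of the 6 samples. When the longest transcript was used as the length, *Gnal* moved from the fourth to the second place and *Rarb* stood above *Gpr6*, while the first place and the places of *Pde10a*, *Rgs9* and *Adora2a* stayed as they were.

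**Figure D1:**
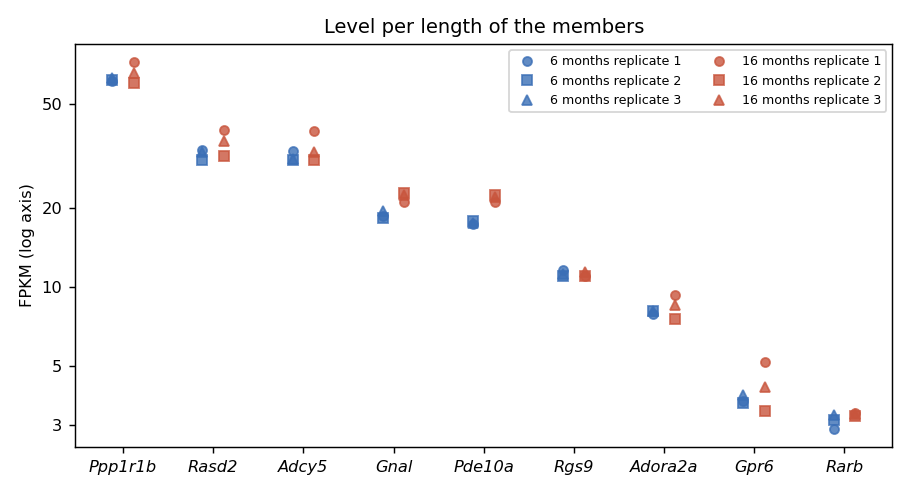
Level per length (FPKM, log axis) of each member in each sample, blue at 6 months and red at 16 months, with the symbol giving the replicate number. *Ppp1r1b* lies between 60.0 and 71.8 FPKM, and *Gpr6* and *Rarb* at the low end.

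Between 6 and 16 months, 1 of the 9 members passed the test at an adjusted P under 0.05 (edgeR). *Pde10a* rose by 1.24-fold (95% interval 1.15 to 1.34), with an adjusted P = 0.0145 (quasi-likelihood test of edgeR, adjusted by Benjamini-Hochberg over all 17120 genes). By the same test, 1.67% of all tested genes were called, made up of 0.783% with the higher and 0.888% with the lower level in the older mice. The fold change lay above 1 for 8 of the 9 members, beside 50.3% of all tested genes, and the exception was *Rgs9*. The median log2 fold change, always given as 16 over 6 months, was 0.12 over the members and 0.0014 over all tested genes. Samples of the ages did not overlap for *Pde10a* and *Gnal* (2 of 9 members), a share close to the 23.7% of all tested genes. Summed over the members, CPM was 1048 to 1074 at 6 months and 1156 to 1252 at 16 months, so that the sums of the ages lay apart. For the other 7 members the sums overlapped, at 613 to 641 CPM and 612 to 744 CPM, where *Pde10a* and *Gnal* were left out because their own samples did not overlap, so that these sums are a description.

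**Figure D2:**
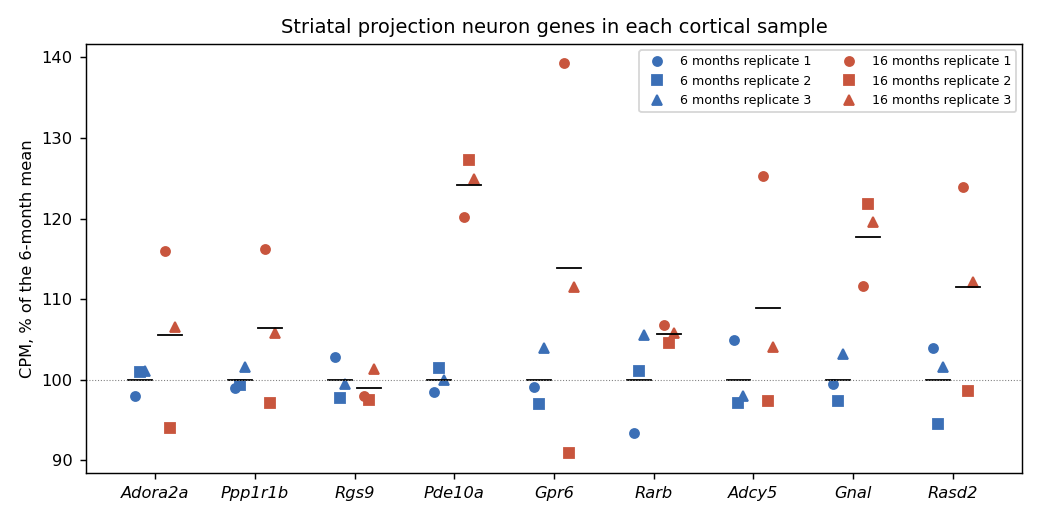
CPM of each member in each sample as a percentage of its mean at 6 months, with black bars for the mean of each age. All 3 samples of 16 months lie above the samples of 6 months for *Pde10a* and *Gnal*, and replicates 1 and 2 of 16 months lie far apart for *Gpr6*, *Adcy5* and *Rasd2*.

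Of the receptors, *Adora2a* encodes the adenosine A2a receptor of indirect pathway neurons and lies on chromosome 10 from 75316877 to 75334784 (GRCm38). Its level was 24.1, 24.9 and 24.9 CPM in replicates 1, 2 and 3 of 6 months, and 28.6, 23.2 and 26.3 CPM in those of 16 months. Replicate 2 of 16 months lay below and replicate 1 above every sample of 6 months, so that the ages overlapped. The difference was 1.06-fold (95% interval 0.94 to 1.19) and did not pass the test (adjusted P = 0.651, edgeR). *Gpr6*, on chromosome 10 from 41069977 to 41072285, encodes an orphan receptor that is active without ligand and is likewise found in indirect pathway neurons. It had the lowest counts of the members, 190 to 310 per sample. Scaled to library size, these were 6.61, 6.47 and 6.94 CPM at 6 months and 9.29, 6.06 and 7.44 CPM at 16 months. Both the highest and the lowest of the 6 values came from 16 months, and the difference of 1.14-fold (95% interval 0.93 to 1.40) did not pass the test (adjusted P = 0.512, edgeR).

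*Gnal* encodes G alpha olf, the stimulatory G protein subunit that couples dopamine D1 and adenosine A2a receptors to adenylyl cyclase in the striatum, and it is also strongly expressed in the olfactory system. It lies on chromosome 18 from 67088216 to 67226792, and 7.6% of its exon length is shared with *Mppe1* on the opposite strand. Its level was 209, 205 and 217 CPM at 6 months and 235, 256 and 251 CPM at 16 months. Every sample of 16 months lay above every sample of 6 months. The difference was 1.18-fold (95% interval 1.08 to 1.28), or 0.23 ± 0.054 (SE) on the log2 scale, and missed the threshold with an adjusted P = 0.0681 (edgeR). *Rgs9*, whose product speeds up the return of G proteins to their inactive state after dopamine receptor signalling, lies on chromosome 11 from 109225355 to 109298129. It had 74.0, 70.3 and 71.6 CPM at 6 months and 70.6, 70.2 and 73.0 CPM at 16 months. The ages overlapped almost wholly, with a difference of 0.99-fold (95% interval 0.92 to 1.07) and an adjusted P = 0.906 (edgeR). The upper bound for *Rgs9*, 1.07-fold, lay below the lower bound for *Pde10a*, 1.15-fold. These 2 genes had the lowest and the highest fold change of the members and were picked after the fit, so that the bounds are a description. No test was made of the difference between the 2 genes.

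The enzymes that make and degrade cAMP differed in spread. *Adcy5*, which encodes the main adenylyl cyclase of the striatum, lies on chromosome 16 from 35154877 to 35305738. It had 236, 218 and 220.3 CPM at 6 months and 282, 219 and 234 CPM at 16 months. Replicate 1 of 16 months stood above all other samples, while the other 2 samples of 16 months lay within the range of 6 months. The difference was 1.09-fold (95% interval 0.95 to 1.24) with an adjusted P = 0.507 (edgeR). *Pde10a*, on chromosome 17 from 8525372 to 8986648, encodes the phosphodiesterase that hydrolyses cAMP and cGMP in medium spiny neurons. Its level was 223, 229.9 and 226 CPM at 6 months and 272, 288 and 283 CPM at 16 months. The 3 values of each age lay close together and the ages lay apart, at 226 ± 3.40 CPM and 281 ± 8.18 CPM (SD, n = 3 each). On the log2 scale the difference was 0.31 ± 0.049 (SE). No other annotated gene shares exon bases with *Pde10a*.

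Downstream of cAMP, *Ppp1r1b* encodes DARPP-32, which inhibits protein phosphatase 1 once protein kinase A has phosphorylated it. It lies on chromosome 11 from 98348404 to 98357796, and 15.7% of its exon length is shared with *1700003D09Rik* on the opposite strand. Its level was 179, 179.8 and 184 CPM at 6 months and 210.2, 176 and 191 CPM at 16 months. Replicate 2 of 16 months was the lowest and replicate 1 of 16 months the highest of the 6 samples, so that the ages overlapped. The difference was 1.06-fold (95% interval 0.96 to 1.18) with an adjusted P = 0.536 (edgeR). *Rasd2*, which encodes the small GTPase Rhes, lies on chromosome 8 from 75213944 to 75224113. It had 106, 96.4 and 104 CPM at 6 months and 126, 101 and 115 CPM at 16 months. Replicate 2 of 16 months lay within the range of 6 months and the other 2 above it, with a difference of 1.12-fold (95% interval 0.98 to 1.26) and an adjusted P = 0.349 (edgeR).

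*Rarb* encodes retinoic acid receptor beta, a transcription factor needed for the development of striatal neurons, and lies on chromosome 14 from 16430839 to 16819156. Of its exon length, 34.1% is shared with *Top2b* on the opposite strand, and *Rarb* was the member with the largest shared part. The library kit does not mark strand, so that reads of a gene and of its partner on the opposite strand cannot be told apart. It had 15.3, 16.5 and 17.2 CPM at 6 months and 17.4, 17.1 and 17.3 CPM at 16 months. All 3 samples of 16 months lay close to the highest sample of 6 months, so that the ages overlapped, and the difference was 1.06-fold (95% interval 0.95 to 1.17) with an adjusted P = 0.576 (edgeR). Of 13 other genes of retinoic acid supply, binding and reception, 1 was called and 5 had an unadjusted p under 0.05, beside 1.67% and 17.4% of all tested genes. Over the 13 alternative fits 0 to 5 were called. There were 0 by DESeq2 and 5 with the offsets for GC content and length, where 2.67% and 13.7% of all tested genes were called. *Cyp26b1*, which encodes an enzyme that degrades retinoic acid, had 4.48, 4.57 and 4.79 CPM at 6 months and 6.37, 6.19 and 6.03 CPM at 16 months. It rose by 1.34-fold (95% interval 1.18 to 1.52) with an adjusted P = 0.0324 (edgeR), a call lost in 5 of 13 alternative fits. The log2 fold changes of these 13 genes lay between −0.42 and 0.72 with a median of −0.0087. *Rxrb* and *Aldh1a1*, the most abundant of them per length, had log2 fold changes of 0.11 ± 0.089 and 0.080 ± 0.059 (SE).

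The order of the samples of 16 months differed between members of high and of low GC content. In 5 members the longest transcript held 55.6% to 61.0% GC (*Rasd2*, *Gpr6*, *Adora2a*, *Adcy5* and *Ppp1r1b*), and in the other 4 it held 47.8% to 49.0% (*Rarb*, *Rgs9*, *Pde10a* and *Gnal*). All 5 members of high GC content were highest in replicate 1, lower in replicate 3 and lowest in replicate 2 of 16 months, an order found in 55.9% of all tested genes over 50% GC. Between replicates 1 and 2 of 16 months these 5 differed by 0.26 to 0.61 on the log2 scale, and the other 4 by −0.12 to 0.031. Across the 9 members this difference correlated with GC content at r = 0.77, and across 16904 tested genes at r = 0.64. The members form 2 separate groups of GC content. Within each group the member of highest GC content had the lowest difference, 0.26 for *Ppp1r1b* and −0.12 for *Gnal*. The members share the 2 libraries, so that both correlations are descriptions. The corresponding difference between replicates 1 and 2 of 6 months gave r = 0.29 and 0.16. With each library taken as 1 mouse, a difference between libraries and a difference between mice cannot be told apart.

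**Figure D3:**
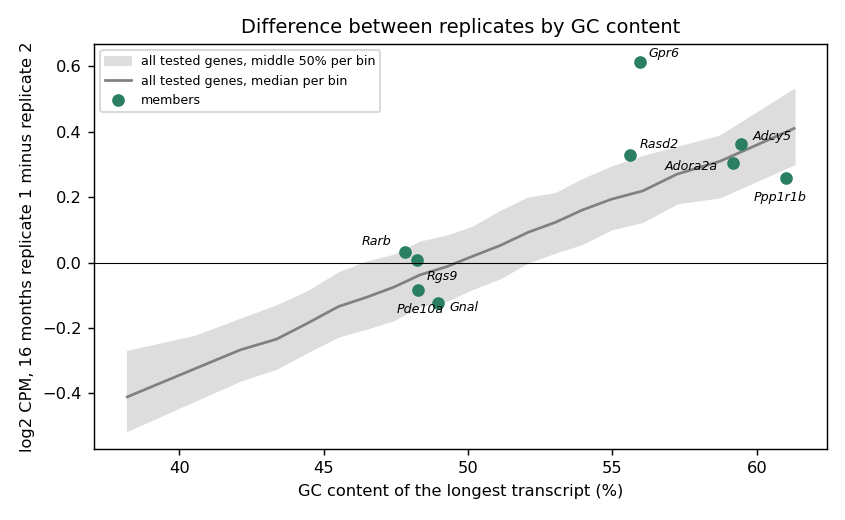
Difference in log2 CPM between replicates 1 and 2 of 16 months against the GC content of the longest transcript, for the members (green) and for all tested genes in 20 bins (grey line for the median, grey band for the middle 50%). The 5 members over 50% GC lie between 0.26 and 0.61, and the 4 under 50% between −0.12 and 0.031.

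The median SD of log2 CPM over the members was 0.042 at 6 months and 0.13 at 16 months, beside 0.063 and 0.13 over all tested genes. The SD was larger at 16 months in 7 of 9 members, the exceptions being *Rgs9* and *Rarb*, and in 75.5% of all tested genes. With offsets for GC content and transcript length, the median SD of the members was 0.045 at 6 months and 0.053 at 16 months. The SD of *Adora2a* at 16 months went from 0.15 to 0.020 with the offsets, that of *Adcy5* from 0.19 to 0.044, and that of *Gpr6* from 0.31 to 0.20. It became larger for *Rarb*, from 0.015 to 0.053, and slightly larger for *Gnal*, from 0.066 to 0.073, and *Rgs9*, from 0.030 to 0.032. With the offsets 3 of 9 members were called, where 13.7% of all tested genes were. These were *Pde10a* (log2 fold change 0.27), *Gnal* (0.19, adjusted P = 0.00501, edgeR) and *Rasd2* (0.12, adjusted P = 0.0469, edgeR).

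The members of high GC content also varied together, whereas those of low GC content did not do so as a group. Over the 6 samples, log2 CPM of the 10 pairs within the 5 members of high GC content correlated with r of 0.85 to 0.99. For the 6 pairs within the 4 members of low GC content r ranged from −0.59 to 0.96 with a median of 0.22, the highest value being that of *Pde10a* and *Gnal*. For the 20 pairs between members of high and low GC content it ranged from −0.11 to 0.51, and from −0.97 to 0.39 for deviations from the mean of each age. These are descriptions of 6 libraries. The 5 genes outside the members whose log2 CPM followed the mean profile of the members most closely, of 8838 genes with a mean of 1 CPM or more and at least the same SD, were *Ddn*, *Arc*, *Pld3*, *Ksr1* and *Ankrd34a*, with r from 0.994 to 0.999 over 6 samples. Their longest transcripts held 57.3% to 60.1% GC, and none of them was called between the ages (adjusted P between 0.149 and 0.205, edgeR).

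Leaving out replicate 1 or 2 of 16 months moved the differences of the members of high GC content more than those of the others. Without replicate 1 of 16 months, the log2 fold changes of *Adora2a*, *Ppp1r1b*, *Gpr6*, *Adcy5* and *Rasd2* were 0.0060, 0.021, 0.018, 0.0094 and 0.074. Without replicate 2 of 16 months they were 0.15, 0.15, 0.32, 0.20 and 0.24, and *Rasd2* was then called (adjusted P = 0.0262, edgeR). Among the 6 fits that left out 1 sample, *Rarb* ranged from 0.031 without replicate 1 to 0.12 without replicate 3 of 6 months. For *Pde10a* the value stayed between 0.29 and 0.34 in the 6 fits. Its call was kept without replicate 1 or 2 of 16 months, and lost when any 1 sample of 6 months or replicate 3 of 16 months was left out (adjusted P between 0.108 and 0.136, edgeR), where 0.318%, 0.328%, 0.277% and 0.335% of all tested genes were called. *Gnal* was called without replicate 1 of 16 months (adjusted P = 0.00327, edgeR) and without replicate 2 of 16 months (adjusted P = 0.0225, edgeR), where 5.73% and 12.7% of all tested genes were called.

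**Figure D4:**
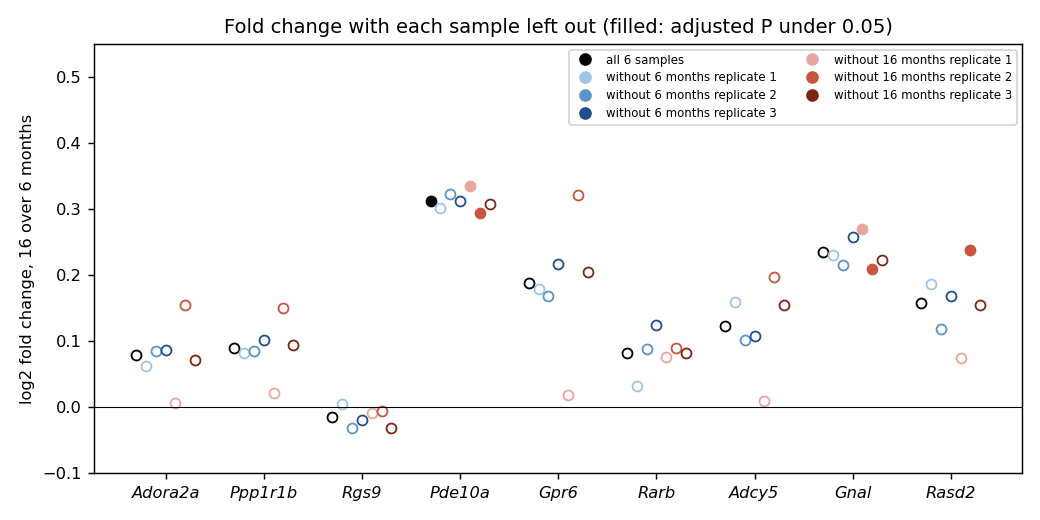
Log2 fold change (16 over 6 months) of each member with all 6 samples (black) and with each sample left out in turn (blue for samples of 6 months, red for samples of 16 months), filled where the adjusted P is under 0.05. *Pde10a* stays between 0.29 and 0.34, whereas *Gpr6* runs from 0.018 to 0.32.

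Of 33 further genes known from striatal projection neurons, 32 were matched and tested, *Gpr52* was not analysed here, and several are also expressed in cortical neurons. At 16 months 3 of the 32 were higher and 0 lower by edgeR's test, which called 0.783% and 0.888% of all tested genes in these directions. Their median log2 fold change was 0.14, and 27 of 32 had a positive value, beside 50.3% of all tested genes. Samples of the ages did not overlap for 17 of 32, beside 23.7% of all tested genes. An unadjusted p under 0.05 (edgeR) was found for 11 of 32, beside 17.4% of all tested genes. This list too was chosen with earlier results of these data known, so that its counts are descriptions. *Penk*, the precursor of enkephalin made by indirect pathway neurons and also by cortical interneurons, had 116, 119.5 and 122 CPM at 6 months and 139, 140.4 and 145 CPM at 16 months, and rose by 1.19-fold (95% interval 1.10 to 1.28) with an adjusted P = 0.0404 (edgeR). *Six3*, a transcription factor gene of developing indirect pathway neurons, had 4.20, 4.13 and 4.08 CPM at 6 months and 6.94, 7.21 and 6.32 CPM at 16 months. It showed the largest fold change of the called striatal genes, 1.65-fold (95% interval 1.44 to 1.88), with an adjusted P = 0.00394 (edgeR). *Pde7b*, which encodes a cAMP phosphodiesterase, had 58.2, 56.1 and 54.6 CPM at 6 months and 66.6, 73.3 and 70.3 CPM at 16 months, and rose by 1.24-fold (95% interval 1.14 to 1.36) with an adjusted P = 0.0261 (edgeR). The call of *Six3* was kept in all 13 alternative fits, whereas those of *Penk* and *Pde7b* were each lost in 4.

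The classical pathway markers other than *Penk* did not pass the test. For the dopamine receptor genes, the level of *Drd1* was 30.0, 32.7 and 30.2 CPM at 6 months and 30.7, 33.4 and 33.0 CPM at 16 months, a difference of 1.05-fold (95% interval 0.95 to 1.15). *Drd2* had 13.7, 11.5 and 13.3 CPM and 15.3, 13.6 and 14.4 CPM, a difference of 1.12-fold (95% interval 0.98 to 1.27). The substance P precursor gene *Tac1*, which cortical interneurons express too, had 32.1, 36.0 and 35.7 CPM at 6 months and 27.0, 32.6 and 29.1 CPM at 16 months, a difference of 0.86-fold (95% interval 0.76 to 0.97) with an adjusted P = 0.188 (edgeR), and it was called lower in 4 of 13 alternative fits. The dynorphin precursor gene *Pdyn* had 27.2, 27.0 and 25.7 CPM at 6 months and 32.0, 27.6 and 29.6 CPM at 16 months, without overlap between the ages. It differed by 1.12-fold (95% interval 1.01 to 1.24) with an adjusted P = 0.261 (edgeR), and was called higher in 2 of 13 alternative fits. Besides *Penk*, the highest levels per length among the 32 genes were those of *Gng7* with 48.7 FPKM and *Scn4b* with 43.7 FPKM, whose differences were 1.08-fold (95% interval 0.98 to 1.18) and 1.06-fold (95% interval 0.99 to 1.14). *Gng7* encodes a G protein gamma subunit that works with G alpha olf, and *Scn4b* a subunit of sodium channels.

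**Figure D5:**
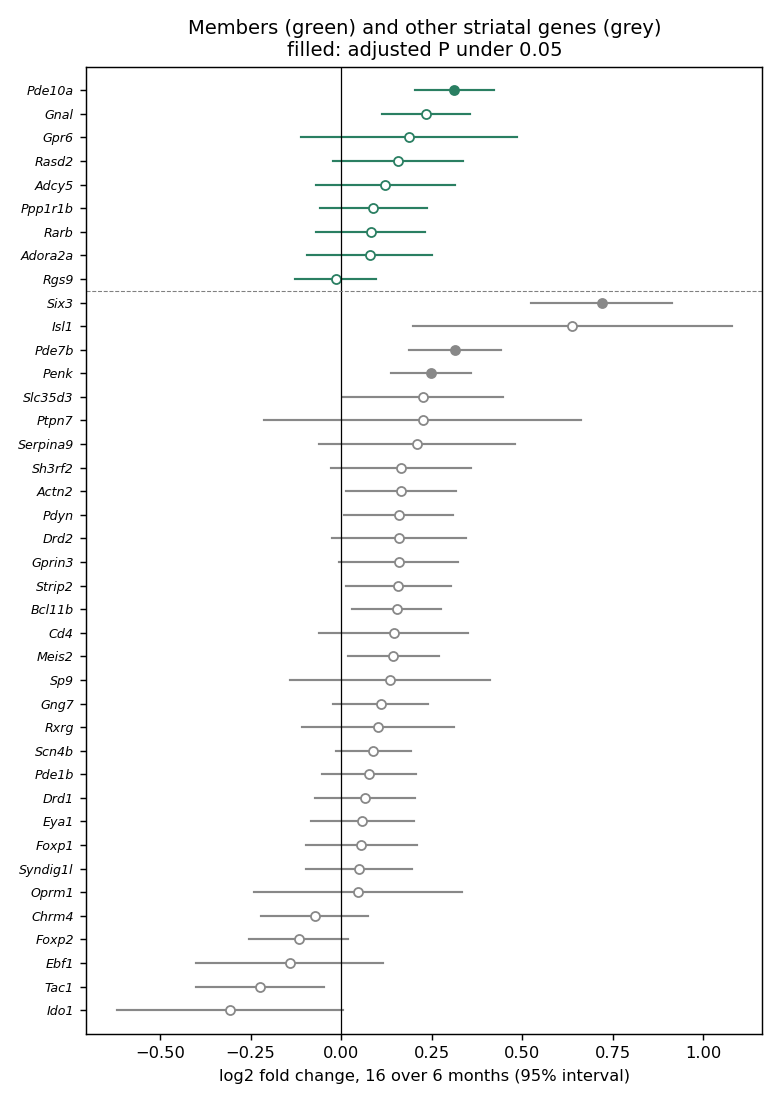
Log2 fold change (16 over 6 months) with its 95% interval for the 9 members (green) and the other striatal genes (grey, with 1 of the 32 left out), filled where the adjusted P is under 0.05. *Pde10a* is the filled point among the members, and *Six3*, *Pde7b* and *Penk* are those among the other genes.

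Sorted by pathway, the 7 tested genes of the indirect pathway, among them *Adora2a* and *Gpr6*, summed to 179.5 to 187 CPM at 6 months and 208 to 217 CPM at 16 months. The 8 genes of the direct pathway summed to 147 to 151 CPM at 6 months and 147 to 149 CPM at 16 months. The sums of the ages lay apart in the indirect list, most of which is *Penk*, and overlapped in the direct list. Single direct genes went both ways, with log2 fold changes from −0.23 to 0.64. Samples of the ages did not overlap for 5 of 8 direct and 3 of 7 indirect genes, beside 23.7% of all tested genes. The difference between the pathways was not tested. By edgeR's test 2 of 7 indirect genes were called higher, *Penk* and *Six3*, and 0 of 8 direct genes were called. Of all tested genes 0.783% were called higher. An unadjusted p under 0.05 (edgeR) was found for 4 of 8 direct and 2 of 7 indirect genes, beside 17.4% of all tested genes. Over the 13 alternative fits the calls numbered 1 to 2 in the indirect list and 0 to 3 in the direct list. With the offsets for GC content and length 2 were called in each, where 13.7% of all tested genes were called.

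Partners of the members in G protein, cAMP and phosphatase signalling are expressed in most neurons. Of 30 such genes, 29 were matched and tested, and 0 were called in either direction by edgeR's test, with 9 at an unadjusted p under 0.05, beside 17.4% of all tested genes. DESeq2's test called 0 of them, and over the 13 alternative fits between 0 and 11 were called, the highest number with the offsets and the replicate block, where 18.1% of all tested genes were called. Their log2 fold changes lay between −0.10 and 0.21 with a median of 0.075. *Ppp3r1*, which encodes the regulatory subunit of calcineurin, the phosphatase that acts on DARPP-32, and *Prkar1a*, a regulatory subunit of protein kinase A, were the most abundant per length and differed by 1.01-fold (95% interval 0.89 to 1.14) and 1.01-fold (95% interval 0.92 to 1.11).

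Some markers of other regions around the cortex were also called, in lists that were not tested as a whole, against 0.783% of all tested genes called higher. These lists were chosen with earlier results of these data known, so that the counts of calls are descriptions. Of the 12 thalamic markers, 11 were tested and 6 were called higher, with summed levels of 275 to 283 CPM at 6 months and 294 to 332 CPM at 16 months. The thalamic genes called were *Shox2*, *Prkcd*, *Synpo2*, *Ramp3*, *Tcf7l2* and *Plekhg1*, with log2 fold changes from 0.32 to 4.06, the upper end being *Shox2* with 4 counts in each sample of 6 months and 48 to 65 at 16 months. When any 1 sample of 6 months or replicate 3 of 16 months was left out, 3 thalamic genes were called. In these fits 0.277% to 0.335% of all tested genes were called. Of 10 dentate gyrus markers, 3 were called higher (*Dsp*, *Lct* and *C1ql2*), and the list summed to 302 to 310.4 CPM and 337 to 359 CPM. Of the dentate list DESeq2 called 5, beside 2.67% of all genes it tested. Leaving out 1 sample gave 2 to 6, the latter without replicate 1 of 16 months, where 5.73% of all tested genes were called. Among 7 tested choroid plexus markers of 10, *Ttr* was called higher, and the list summed to 17.7 to 18.8 CPM and 26.0 to 29.2 CPM. The 10 markers of cortical excitatory neurons summed to 1586 to 1681 CPM and 1608 to 1915 CPM, overlapping between the ages, with 0 called by edgeR, 0 at an unadjusted p under 0.05 and 0 called by DESeq2, and 0 to 3 over the 13 alternative fits. *Slc17a7*, with 56.6% GC, showed the order of the members of high GC content at 16 months, at 1248, 955 and 1070.2 CPM in replicates 1, 2 and 3. None of these lists held a marker at 0 counts in every sample. The part of these regions in the differences of the members was not tested.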

How the data were processed

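RNA of cortical hemispheres from 3 mice of each age was sequenced as paired reads on an Illumina HiSeq2000 after poly(A) selection. According to the methods of the study, reads were trimmed, mapped to mm10 with STAR and counted per Ensembl gene with HTSeq, whereas the submitters' processing notes name CASAVA 1.8.2, STAR 2.3.0e and featureCounts 1.5.0-p1. The Ensembl release and the strand setting are not given in the sources used here. The deposited values were raw counts per gene, 1 table per sample, and lines that name no gene were left out. Gene names, exon lengths and GC content were taken from GENCODE M21 (GRCm38), which matched 36602 of the 38355 gene identifiers, and GC content was known for 98.7% of the tested genes.

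Counts were filtered by edgeR's filterByExpr, scaled by TMM and compared with the quasi-likelihood test of edgeR 4.0.16 in R 4.3.3, without covariates. P-values were adjusted by Benjamini-Hochberg over all 17120 tested genes, and a gene was called under 0.05. A count of 3, the limit that a count of 0 allows, corresponds to 0.0640 to 0.100 CPM, and intervals of single counts cover counting error only. Replicates of the same age differed by more than sampling noise. The p-values set the difference between the ages against the spread between samples of the same age, estimated with information from all tested genes.

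Alternatives were DESeq2's size factors, other filters on low counts, the Wald test of DESeq2 1.42.0, a block for the replicate number, offsets for GC content and transcript length, and leaving out each sample. The test was checked on simulated counts. Exon sequences of the members were compared with all transcripts by blastn 2.17.0, and no near-identical copy was found other than in overlapping genes. The members and gene lists were chosen with earlier results of these data known. Genes named were the 9 members, *Drd1*, *Drd2*, *Penk*, *Tac1* and *Pdyn*, the 3 other striatal genes of highest level per length, every gene called in a list, up to 2 of highest level per length in each further list, and the 5 genes most like the mean profile of the members. By the same rule 1 further gene of the striatal list was to be named, and it is not reported here.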

Additional observations from a re-analysis of the deposited data

How the results depend on the processing

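Of the 9 members, 1 was called with all 6 samples, 1 with DESeq2's size factors or a minimum of 10 counts in every sample, 2 without a filter on low counts, with DESeq2's test or with the replicate block, and 3 with offsets for GC content and length, with or without the block. Over all genes, 286 (1.67%) were called with all 6 samples, 289 (1.69%) with DESeq2's size factors and 270 (1.67%) with the minimum of 10 counts. There were 648 (2.35% of 27569) without a filter, 470 (2.67% of 17623) with DESeq2's test and 783 (4.57%) with the block. With the offsets 2347 (13.7%) were called, and 3096 (18.1%) with offsets and block. Leaving out 1 sample gave 0 to 3 members, 48 (0.277%) to 2211 (12.7%) genes in all and 1 to 7 other striatal genes. Of the other striatal genes 3 were called with all samples, 6 with the offsets and 8 with offsets and block. The counts were lowest when any 1 sample of 6 months or replicate 3 of 16 months was left out, and highest without replicate 1 (995 genes) or 2 (2211 genes) of 16 months; fewer samples enter such fits, and the cause of the rise was not tested. The median log2 fold change of the members ranged from 0.021 without replicate 1 of 16 months to 0.20 without replicate 2 of 16 months, and was 0.069 with the offsets. Over the fits that left out 1 sample *Rgs9* ranged from −0.032 to 0.0050, the positive value without replicate 1 of 6 months. *Gnal* was called in 7 and *Rasd2* in 3 of 13 alternatives, and *Pde10a* in 9. *Adora2a*, *Gpr6*, *Adcy5*, *Ppp1r1b* and *Rarb* kept a positive value and were called in 0 of 13, with adjusted P from 0.0589 upwards (edgeR). With the replicate block, the background was 4.57%, and the 2 members called were *Pde10a* and *Gnal*. Deviations of samples with the same replicate number correlated at 0.180, 0.0958 and 0.0351, so that the numbers were not taken to pair the mice, and replicate 3 of 16 months correlated more closely with replicate 2 of 6 months (0.0379).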

Other observations

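Cholinergic interneurons are the large cells that release acetylcholine within the striatum, and related neurons lie in the basal forebrain beneath it. Of 7 markers of cholinergic neurons, 6 were matched and tested (*Slc18a3* was not analysed here), and 0 were called by edgeR's test at an adjusted or an unadjusted p under 0.05 and 0 by DESeq2. All 6 had a positive log2 fold change, with a median of 0.23, beside 50.3% of all tested genes with a positive value. Samples of the ages did not overlap for 0 of 6, beside 23.7% of all tested genes. The sum of the 6 was 13.8 to 14.9 CPM at 6 months and 16.1 to 16.8 CPM at 16 months. The peptidase gene *Ecel1* (1.67 FPKM) and the choline transporter gene *Slc5a7* (1.01 FPKM) were the most abundant of them per length, with log2 fold changes of 0.18 ± 0.12 and 0.14 ± 0.13 (SE).

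*Gnal* is also a gene of the olfactory system. Of 7 olfactory bulb markers 5 were tested, and 0 were called by edgeR and 0 by DESeq2. An unadjusted p under 0.05 (edgeR) was found for 1 of these markers, beside 17.4% of all tested genes. Their sum was 36.1 to 38.2 CPM at 6 months and 36.9 to 37.5 CPM at 16 months, so that the range of the older samples lay within that of the younger ones. *Tshz1* and *Cdhr1*, the most abundant per length, had log2 fold changes of −0.076 ± 0.054 and 0.40 ± 0.13 (SE).

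Among the glial lists of 7 genes each, *Gfap* of astrocytes fell by 0.47 on the log2 scale (adjusted P = 0.00332, edgeR), *Aif1* of microglia fell by 0.43 (adjusted P = 0.0418, edgeR) and *Cldn11* of oligodendrocytes rose by 0.28 (adjusted P = 0.0251, edgeR). Each was the 1 gene of its list called by this test, which called 1.67% of all tested genes. DESeq2 called 3 astrocyte, 2 oligodendrocyte and 2 microglia genes, and 2.67% of all genes it tested. With the offsets for GC content and length, where 13.7% of all tested genes were called, edgeR called 4 astrocyte, 5 oligodendrocyte and 3 microglia genes. The calls of *Aif1* and *Cldn11* were lost when any 1 sample of 6 months or replicate 3 of 16 months was left out. Of 7 endothelial markers 0 were called by edgeR and 0 by DESeq2. An unadjusted p under 0.05 (edgeR) was found for 2 of them, beside 17.4% of all tested genes. With the offsets 3 were called and without replicate 1 of 16 months 1, where 13.7% and 5.73% of all tested genes were called.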
